A study of Mus musculus with 30 samples.

Results

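The genes described here are 10 genes that are used to recognise retinal ganglion cells in the mouse, followed in the whole eye and in a block of hypothalamus from wild-type (WT) mice and from mice that lack PER3. They were chosen by name, as every array probe whose gene name is Pou4f1, Pou4f2, Pou4f3, Rbpms, Thy1, Sncg, Nefl, Nefm, Isl1 or Eomes, out of 28146 gene names on the array. They are measured by 17 probes, and 6 of the genes have more than 1 probe. All mice were adult males on a C57Bl/6J background, Per3-/- mice and their WT litter mates, killed during the 17th cycle of an ultradian light/dark schedule of 3.5 h of light and 3.5 h of dark. The schedule was shared by all groups, so the comparisons hold no mice on a normal day. The eye groups were 7 WT and 7 Per3-/- mice and the hypothalamus groups were 8 WT and 8 Per3-/- mice, each array holding the RNA of a single mouse. The Per3-/- allele carries a selection cassette in place of a part of Per3 and may still give a transcript, and the only Per3 probe was not placed relative to that part here. That probe lay between -3.55 and -2.57 in WT eyes and between -4.12 and -2.90 in Per3-/- eyes, with means of -3.13 and -3.58. In the hypothalamus it lay between -3.79 and -3.28 in WT and between -4.22 and -3.59 in Per3-/- mice, with means of -3.46 and -3.97. The genotypes thus overlapped in both tissues, with the lower mean in Per3-/- mice in each.

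Retinal ganglion cells are the output neurons of the retina. Their axons form the optic nerve and carry light information to the brain, including, from the melanopsin cells among them, to the suprachiasmatic nuclei of the hypothalamus that hold the central clock. Their cell bodies make up a small share of the cells of a whole eye, which also holds photoreceptors, interneurons, glia, lens, cornea and muscle. The hypothalamic block, cut around the optic chiasm, holds their axons but not their cell bodies, and many brain neurons use the same genes. In such bulk tissue, fewer cells of a type and less RNA per cell cannot be told apart.

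Values are log2 of the background-subtracted intensity of a probe minus log2 of the 75th percentile of its array, so that 0 is the 75th percentile and each unit is a doubling. Brightness also depends on the probe's sequence, so levels are compared between samples and not between probes. The probe given for a gene is the one with the highest mean signal over the 14 eye arrays, and the others are given beside it. After a difference, ± is the standard error.

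The probes are single strands of 60 bases, and where a gene has several they read different stretches of its transcript. The 2 Pou4f1 probes are shown because their tissue differences disagreed, the Pou4f2 probe as that of a related Brn3 factor, and the Rbpms probe because it crosses an exon junction. Positions are those of the hypothalamus array files on mouse build mm9, sequences run 5′ to 3′ along the transcript, and no part is set in capitals because the probe binds over its whole length. The first Pou4f1 probe, on the minus strand at chr14:104865021-104865080, starts at base 1397 of the transcript and reads without a stop codon in 2 frames. The other Pou4f1 probe, at chr14:104861950-104862009, starts at base 3328 and has a stop codon in every frame, and its first 30 bases are given. The Pou4f2 probe lies at chr8:80958843-80958902, and the Rbpms probe spans an intron between chr8:34944892 and chr8:34973482, both on the minus strand.
Whether a probe also binds the transcripts of related genes was not tested.
Pou4f1 A_51_P385874: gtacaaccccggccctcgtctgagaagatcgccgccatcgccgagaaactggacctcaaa
Pou4f1 A_52_P1171614: tagttgggactatatcctctgaagtcatcc
Pou4f2 A_52_P257004: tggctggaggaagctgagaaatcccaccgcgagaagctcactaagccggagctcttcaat
Rbpms A_52_P144032: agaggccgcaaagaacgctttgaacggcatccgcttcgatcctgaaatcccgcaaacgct

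Of the 17 probes, 14 were well above background on every eye array and 12 on every hypothalamus array, and 0 were saturated. Across the arrays 71.4% to 80.7% of all probes were well above background in the eye and 67.9% to 75.6% in the hypothalamus. The labelled tissues had their markers. All 10 photoreceptor genes and all 8 bipolar cell genes were higher in the eye, with median differences of 10.62 and 6.75 on the log2 scale, and 7 of 8 measured hypothalamic neuropeptide genes were lower in it, with a median of -8.06. The eye arrays were scanned in another session and with another grid than the hypothalamus arrays, so tissue and array batch cannot be told apart in any comparison of the tissues. The summed level of the 6 optic nerve myelin genes ranged from 6.96 to 75.8 times the 75th percentile among the eyes.

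There were 3 arrays that stood apart. The hypothalamus array of Per3-/- mouse 1 had 358 probes, that of Per3-/- mouse 7 had 309 and the eye array of Per3-/- mouse 2 had 275 that were well above background and more than 2-fold above every other array of the tissue, against 165 or fewer on any other array. On the array of mouse 1, 10 of 11 genes of the anterior pituitary were above all other arrays, with a summed level of 1190 against 48.9 or less elsewhere. On the array of mouse 7, all 7 genes of the olfactory bulb were above all other arrays, with a summed level of 35.2 against 0.655 or less. These 2 gene lists were written after the values were seen. Hypothalamus results are given with all arrays and, where they change, without mice 1 and 7.

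The POU-domain transcription factors of the Brn3 family, which control ganglion cell differentiation and survival, were brighter in the eye by at least 1 probe each. Pou4f1 (Brn3a) lay between -0.10 and 0.52 with a median of 0.04 in the WT eyes and between -0.17 and 0.79 with a median of 0.11 in the Per3-/- eyes. Hypothalamic values lay between -2.39 and -1.98 with a median of -2.19 in WT and between -2.64 and -2.12 with a median of -2.24 in Per3-/- mice. Every eye was above every hypothalamic block, and the genotypes overlapped in both. The difference between eye and hypothalamus was 2.40 ± 0.08 (SE, 14 and 16 arrays), or 5.27-fold (limma, adjusted p = 2.27e-22). The second Pou4f1 probe, whose first bases are printed above, ran from -4.01 to -3.30 in the eye and from -4.73 to -2.44 in the hypothalamus. Its difference of -0.28 ± 0.14 did not pass (limma, adjusted p = 0.0674). It was -0.43 ± 0.10 without mice 1 and 7 and -0.78 after quantile normalization, both past the test, and 0.05 with normexp background correction.

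Pou4f2 (Brn3b), which acts in the commitment of most ganglion cells, was dim. Its brighter probe lay between -6.77 and -4.91 with a median of -6.24 in WT eyes and between -7.12 and -5.38 with a median of -5.84 in Per3-/- eyes, and it was well above background in 3 of 7 WT and 5 of 7 Per3-/- eyes. None of the 16 hypothalamus arrays had it well above background, with measured values from -8.48 to -7.64. Over all 14 eyes it averaged 1.47-fold above the faintest probes well above background on the hypothalamus arrays. That average includes the eyes where it was not well above background. Its measured values differed between the tissues (limma, adjusted p = 1.31e-13). The other Pou4f2 probe was well above background in 1 eye and in no hypothalamic block, so no fold is given for it.

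Pou4f3 (Brn3c), which marks a smaller set of ganglion cells and is also needed by the hair cells of the ear, had the only probe of the 17 that was well above background in every eye and in no hypothalamic block. Its values were between -4.25 and -3.60 with a median of -3.91 in WT eyes and between -4.07 and -3.65 with a median of -3.85 in Per3-/- eyes. The measured values in the hypothalamus were between -9.19 and -8.36. In the eye it averaged 6.23-fold above the faintest probes well above background on the hypothalamus arrays. Its measured values differed between the tissues (limma, adjusted p = 6.33e-29). With normexp, which raises faint values, the fitted difference was 3.37-fold. A second probe near the start of the transcript did not share this difference. It was well above background on 11 eye arrays and on all 16 hypothalamus arrays and differed by -0.31 ± 0.13 (limma, adjusted p = 0.0308), by -1.05 after quantile normalization and by 0.18 with normexp, where it did not pass.

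Isl1, a LIM-homeodomain factor that works beside the Brn3 factors in ganglion cells, is also made by amacrine and bipolar cells and by neurons of the arcuate nucleus. It lay between 1.01 and 1.37 with a median of 1.14 in WT eyes and between 1.04 and 1.27 with a median of 1.11 in Per3-/- eyes. Its hypothalamic values lay between -1.10 and -0.84 with a median of -1.05 in WT and between -1.54 and -0.89 with a median of -1.14 in Per3-/- mice. The tissues did not overlap, with a difference of 2.22 ± 0.05 (SE) or 4.66-fold (limma, adjusted p = 1.75e-26). Isl1 and Thy1 had the smallest spread of the reported probes among eyes, each with an SD of 0.10 (n = 14). The Isl1 value is an average of 10 spots per array and the Thy1 value comes from 1 spot, so their spreads are not fully comparable.

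Eomes (Tbr2) is a T-box factor of the melanopsin ganglion cells and of the projection neurons of the olfactory bulb. Its signal varied less in the eye (SD 0.27) than in the hypothalamus (SD 1.71). It lay between -4.17 and -3.23 with a median of -3.56 in WT eyes and between -3.83 and -3.11 with a median of -3.46 in Per3-/- eyes, well above background in all. It was well above background in the hypothalamus on 4 of 8 WT arrays, between -7.83 and -5.64 with a median of -6.08, and on 6 of 8 Per3-/- arrays, between -6.60 and -0.36 with a median of -5.27. The value of -0.36 was that of mouse 7, which was above every eye, so the tissues overlapped. The difference between tissues was 1.99 ± 0.40 (limma, adjusted p = 3.86e-05) and 2.35 ± 0.25 without mice 1 and 7.

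Rbpms, an RNA-binding protein found in nearly all ganglion cells within the retina, is also made by smooth muscle. It lay between -1.82 and -1.40 with a median of -1.57 in WT eyes and between -1.96 and -1.43 with a median of -1.56 in Per3-/- eyes. The hypothalamus lay between -4.18 and -3.96 with a median of -4.02 in WT and between -4.18 and -3.07 with a median of -4.05 in Per3-/- mice. The tissues did not overlap for any of its 3 probes. The differences were 2.39 ± 0.08 or 5.25-fold for the reported probe (limma, adjusted p = 5.14e-22), 1.25 ± 0.08 for the probe printed above and 3.15 ± 0.18 for the third, a measured difference that includes 11 of 16 hypothalamus arrays on which that probe was not well above background. The 5 smooth muscle genes were all higher in the eye too, with a summed level of 48.7 to 76.0 in the eyes and 3.69 to 5.86 in the hypothalamus, and their part in the Rbpms difference was not tested.

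The genes of the axon and of the neuronal surface went the other way. Thy1, a surface glycoprotein of ganglion cells, of most brain neurons and of T cells, lay between 3.95 and 4.33 with a median of 4.20 in WT eyes and between 4.03 and 4.13 with a median of 4.07 in Per3-/- eyes. In the hypothalamus it lay between 6.78 and 7.13 with a median of 7.07 in WT and between 6.82 and 7.01 with a median of 6.93 in Per3-/- mice. Every block was above every eye. The eye was lower by 7.28-fold, a difference of -2.86 ± 0.04 (limma, adjusted p = 3.52e-32), and the second Thy1 probe differed by -3.45 ± 0.06.

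Nefl, the light neurofilament subunit that builds the axonal skeleton with the medium and heavy ones, lay between 3.78 and 4.46 with a median of 4.17 in WT eyes and between 3.86 and 4.34 with a median of 4.10 in Per3-/- eyes. The hypothalamic values of Nefl lay between 5.27 and 5.62 with a median of 5.36 in WT and between 5.07 and 5.44 with a median of 5.38 in Per3-/- mice. The eye was lower without overlap, by -1.21 ± 0.06 (limma, adjusted p = 7.73e-18). A second Nefl probe differed by -0.45 ± 0.05 and its tissues overlapped. Nefm, the medium subunit, lay between 1.06 and 1.42 with a median of 1.20 in WT eyes and between 0.78 and 1.29 with a median of 1.13 in Per3-/- eyes. Its hypothalamic values lay between 2.67 and 3.01 in WT and between 2.56 and 3.12 in Per3-/- mice, and the eye was lower by 3.11-fold, a difference of -1.64 ± 0.06 (limma, adjusted p = 1.08e-21).

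Sncg, gamma-synuclein, which is abundant in ganglion cells and in other projection neurons, differed least between the tissues among the reported probes. It lay between 0.27 and 0.75 with a median of 0.44 in WT eyes and between 0.14 and 0.82 with a median of 0.58 in Per3-/- eyes. Its hypothalamic range was between 0.13 and 0.33 with a median of 0.23 in WT and between -0.26 and 0.47 with a median of 0.19 in Per3-/- mice. The tissues overlapped, and the eye was higher by 0.32 ± 0.07 or 1.25-fold (limma, adjusted p = 7.27e-05).

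**Figure D1:**
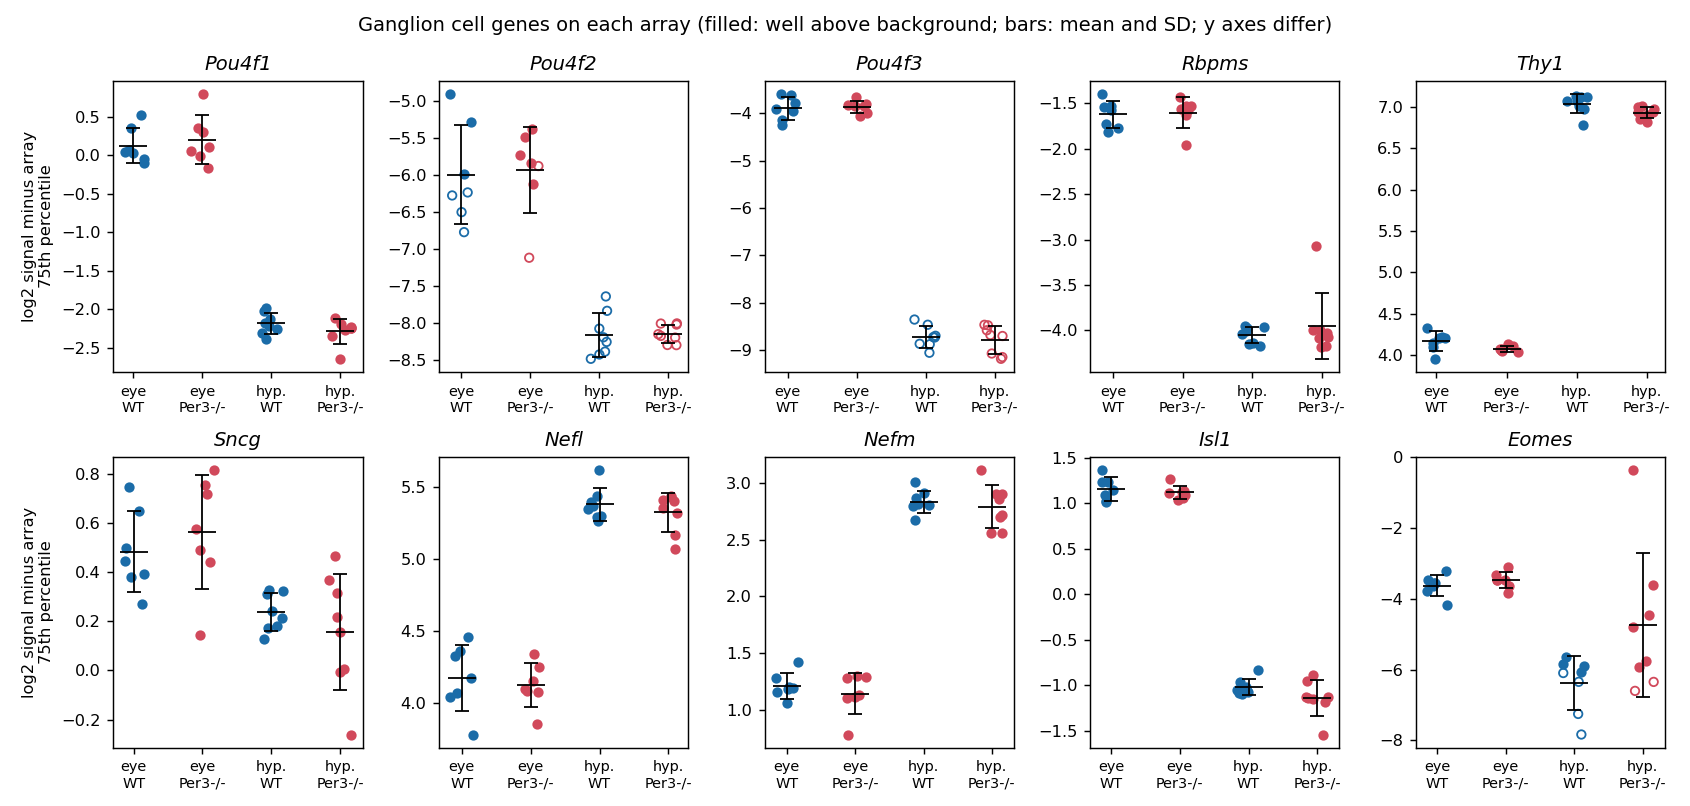
Log2 signal minus the 75th percentile of the array for the reported probe of each of the 10 genes, 1 point per array, in WT and Per3-/- eyes (7 and 7) and hypothalamus (hyp., 8 and 8), with the mean and SD, filled where the probe was well above background, and with a y axis of its own in each panel. The genotypes overlap in every panel, Pou4f1, Pou4f2, Pou4f3, Rbpms and Isl1 are brighter in every eye than in any hypothalamic block, and Thy1, Nefl and Nefm are dimmer.

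In all, 16 of the 17 probes (94.1%) differed between eye and hypothalamus at an adjusted p under 0.05, against 83.1% of all 41174 probes. Of these, 10 were higher in the eye, as 47.9% of all probes were, and 6 were lower, as 35.2% of all probes were. The arrays of the tissues did not overlap for 12 of the 17 (70.6%), against 48.8% of the probes measured on every array. The 10 and the 12 include both Pou4f2 probes and the reported Pou4f3 probe, which were well above background on no hypothalamus array. The dimmer Pou4f2 probe was well above background in 1 of 14 eyes, so its difference compares values near background in both tissues. The median difference was 1.25 over the 17 probes and 0.19 over all probes, and the median size was 1.99 and 0.85. The share of all calls that were higher in the eye was 57.6%, and it was 46.4% after quantile normalization and 64.8% after normexp background correction. The member probes stayed at 10 higher in both, with 7 and 5 lower.

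**Figure D2:**
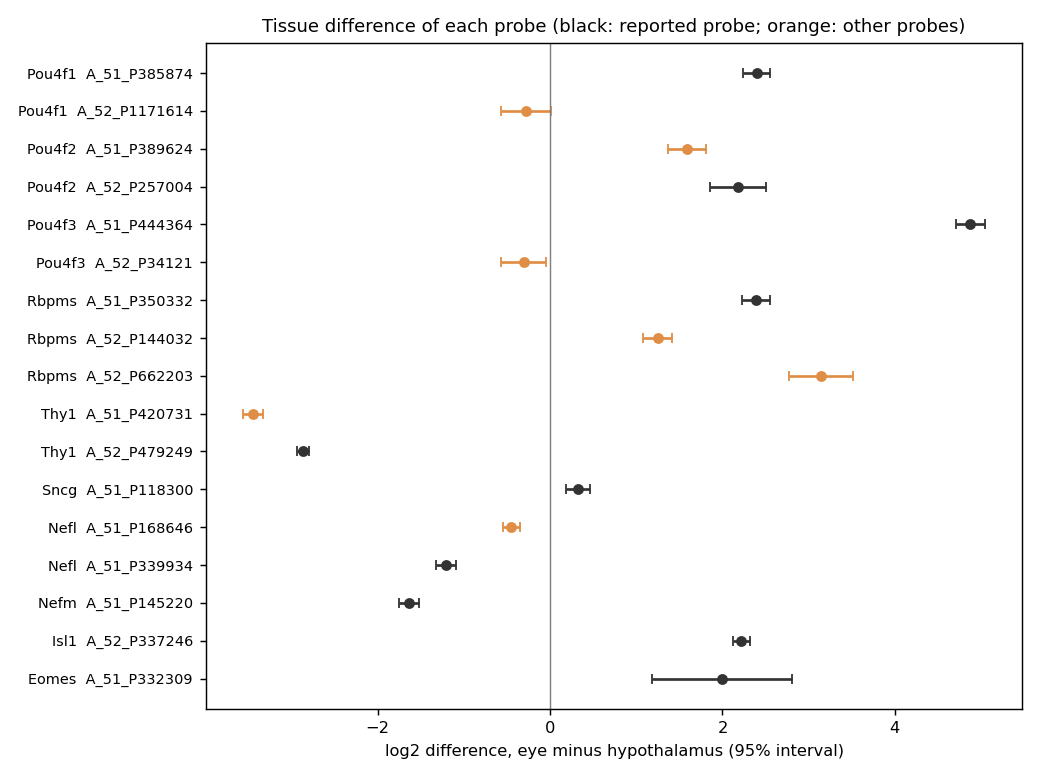
Log2 difference between eye (14 arrays) and hypothalamus (16 arrays) for each of the 17 probes, with the 95% interval of limma, in black for the reported probe of a gene and in orange for its others. The Pou4f1 and Pou4f3 probes of a gene lie on both sides of 0, and both Pou4f2 probes and the black Pou4f3 point compare the eye with values that were not well above background in the hypothalamus.

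The counts of the further lists stand beside 47.9% of all probes called higher in the eye and 35.2% called lower. Of 30 further genes linked to ganglion cells, 11 were higher and 17 lower in the eye, with a median of -1.09. Those with the highest eye signal were Uchl1 (-2.25), a ubiquitin hydrolase of neurons, Spp1 (2.29), osteopontin, and Cpne5 (-1.58), a copine. Of 11 genes of the melanopsin cells, 3 were higher, Tbx20, Gna14 and Opn4, and 8 were lower. Opn4, the photopigment itself, was well above background in all 14 eyes and on 6 of 16 hypothalamus arrays, with a measured difference of 3.99 ± 0.17. The 3 of highest eye signal within that list, the G protein subunits Gna11 and Gnaq and the homeobox gene Irx1, differed by -0.55, -1.59 and -0.47. All 12 measured genes of the axonal skeleton and its transport were lower in the eye, with a median of -2.66, among them the tubulin Tubb2a (-1.54), the kinesin Kif5a (-2.57) and the spectrin Spnb2 (-1.81).

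Of the lists for other cells of the eye, the amacrine list had 6 of 14 genes higher and 8 lower in the eye. The horizontal cell list had 4 of 4 lower, and that for glia had 2 of 6 higher and 3 lower. Over all probes, 47.9% were called higher in the eye and 35.2% lower. All 6 myelin genes were lower, 4 of 7 genes of peripheral sensory neurons were higher and 2 lower, and 3 of 4 T cell genes were higher and 1 lower. Of the olfactory bulb list 6 of 7 were higher in the eye, and of the pituitary list 5 of 11 were higher and 4 lower. Ranked by eye signal within each list alone, and not against other genes, the first were Slc6a9, Slc32a1 and Pax6 for amacrine cells, Calb1, Onecut2 and Lhx1 for horizontal cells, and Glul, Rlbp1 and Dkk3 for glia. They were Pde6g, Gnat1 and Rcvrn for photoreceptors, Tagln, Acta2 and Des for smooth muscle, Cd3e, Lck and Cd3g for T cells, and Pomc, Vip and Oxt for hypothalamic neurons. For the olfactory bulb they were Cdhr1, Shisa3 and Scgn and for the pituitary Pomc, Lhb and Pitx1. Pcp2 and Trpm1 of the bipolar list, Mbp and Mag of the myelin list, and Runx1 and Calca of the sensory list were also among the first 3.

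The next comparison asked whether the genes differed between Per3-/- and WT eyes. None of the 17 probes passed an adjusted p of 0.05 in limma, and 0 had an unadjusted p under 0.05, against 8 called probes of 41174 (0.0194%) and 743 at an unadjusted p under 0.05. With the replicate number as a block 1 probe of the array was called, and it was no member. The 17 differences lay between -0.14 and 0.16 on the log2 scale, with a median of 0.02 against 0.00 over all probes. The largest of the reported probes was that of Eomes, 0.16 ± 0.14 (SE, 7 against 7), and it lay between 0.0006 and 0.357 within the 4 slides. Thy1 had the lowest p, with -0.09 ± 0.06 (limma, unadjusted p = 0.14, adjusted p = 1).

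The intervals give the size of change that the arrays could still hold. The 95% intervals of the 9 reported probes other than Pou4f2 lay between -0.28 and 0.45. For Isl1 the interval was -0.18 to 0.10, for Thy1 -0.22 to 0.03 and for Rbpms -0.17 to 0.21. For Pou4f2, near background and with an SD of 0.60 among the eyes, it was -0.61 to 0.73. The second Pou4f3 probe, well above background on 11 of 14 eye arrays, had an interval of -0.72 to 0.43.

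In the hypothalamus, 0 of the 17 probes were called, against 17 called probes of 41174 (0.0413%) and 1161 at an unadjusted p under 0.05. The members at an unadjusted p under 0.05 were 2, Eomes and Thy1. Eomes was higher in Per3-/- mice by 1.64 ± 0.73 (limma, unadjusted p = 0.0391, adjusted p = 0.991), with 4 of 8 Per3-/- arrays above all WT arrays. Thy1 was lower by -0.11 ± 0.05 (limma, unadjusted p = 0.0478, adjusted p = 0.991), with every Per3-/- array within the WT range. The Eomes difference includes the 4 of 8 WT and 2 of 8 Per3-/- arrays on which it was not well above background, and with normexp it was 0.60 ± 0.44. Without mice 1 and 7, Eomes differed by 0.92 ± 0.49 and Thy1 by -0.08 ± 0.05, and 0 members had an unadjusted p under 0.05. Isl1 was below all WT arrays on 6 of 8 Per3-/- arrays. Its difference of -0.12 ± 0.07 did not pass (limma, unadjusted p = 0.135, adjusted p = 0.991) and was -0.05 ± 0.06 without mice 1 and 7. The second Pou4f1 probe was below all WT arrays on 5 of 8 Per3-/- arrays. It differed by -0.46 ± 0.24 (limma, unadjusted p = 0.0812, adjusted p = 0.991) and by -0.14 ± 0.16 without mice 1 and 7.

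The 4 Per3-/- arrays with the highest Eomes, of mice 7, 4, 6 and 1 at -0.36, -3.62, -4.45 and -4.79, were the 4 with the highest summed level of olfactory bulb genes, at 35.2, 0.655, 0.598 and 0.537, while the WT arrays lay between 0.420 and 0.527. Outside mouse 7 all sums lay at 0.655 or less, and 0 of the 7 olfactory bulb genes were above all other arrays on those of mice 1 and 4. The array of WT mouse 6, with the sum of 0.527, had Eomes at -6.35, not well above background. The olfactory bulb list was written after the values were seen. On the array of mouse 7, S100a5 stood at 3.54 against -6.48 or less elsewhere and Doc2g at 3.59 against -1.74 or less. On the array of mouse 1, Rbpms stood at -3.07 against -3.96 or less elsewhere, together with the pituitary hormone genes Gh at 8.21 and Prl at 8.15. The 5 smooth muscle genes were above all other arrays on neither. The part of tissue from outside the hypothalamus in the Eomes and Rbpms values was not tested. The Rbpms difference between genotypes was 0.10 ± 0.13 with all arrays and -0.01 ± 0.05 without mice 1 and 7.

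**Figure D3:**
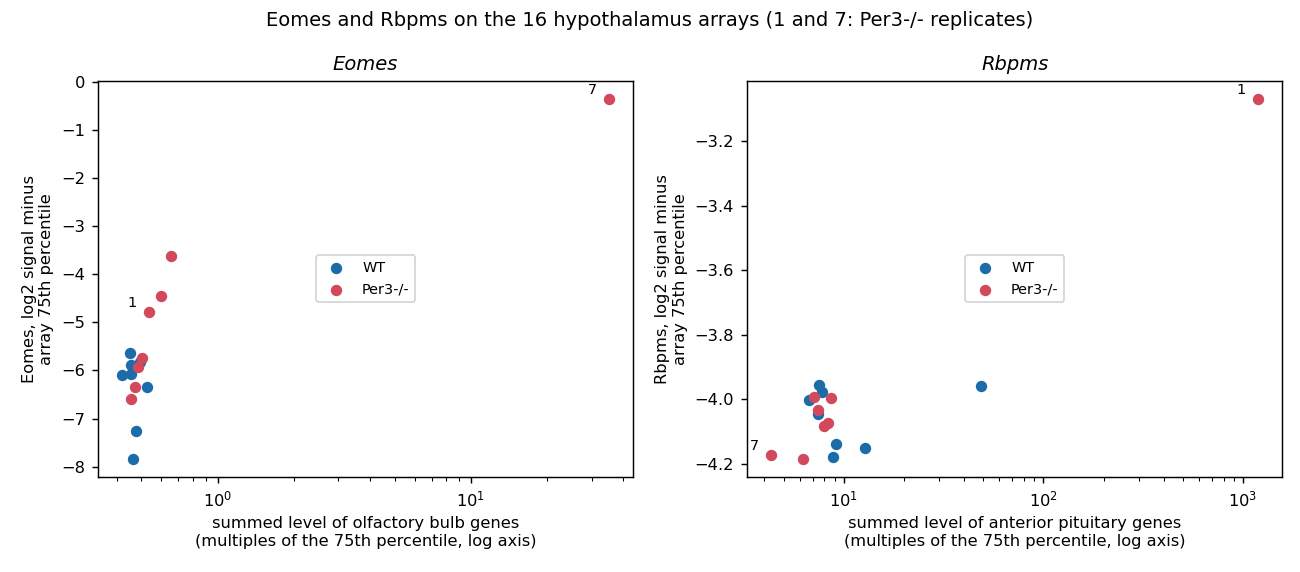
The 16 hypothalamus arrays, with the log2 signal of Eomes against the summed level of 7 olfactory bulb genes (left) and of Rbpms against that of 11 anterior pituitary genes (right), on a log axis in multiples of the 75th percentile, 1 point per array, with Per3-/- mice 1 and 7 numbered. Eomes is highest on the array of mouse 7, at -0.36 with a sum of 35.2, and Rbpms on that of mouse 1, at -3.07 with a sum of 1190.

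The test of the difference itself, fitted to the 30 arrays together with mouse as a random effect, called 0 of the 17 probes, against 2 of 41174 (0.00486%) and 909 at an unadjusted p under 0.05. The genotype difference in the eye minus that in the hypothalamus was -1.47 ± 0.79 for Eomes (limma, adjusted p = 1) and 0.18 ± 0.15 for Pou4f1, and for the other reported probes it lay between -0.07 and 0.16.

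**Figure D4:**
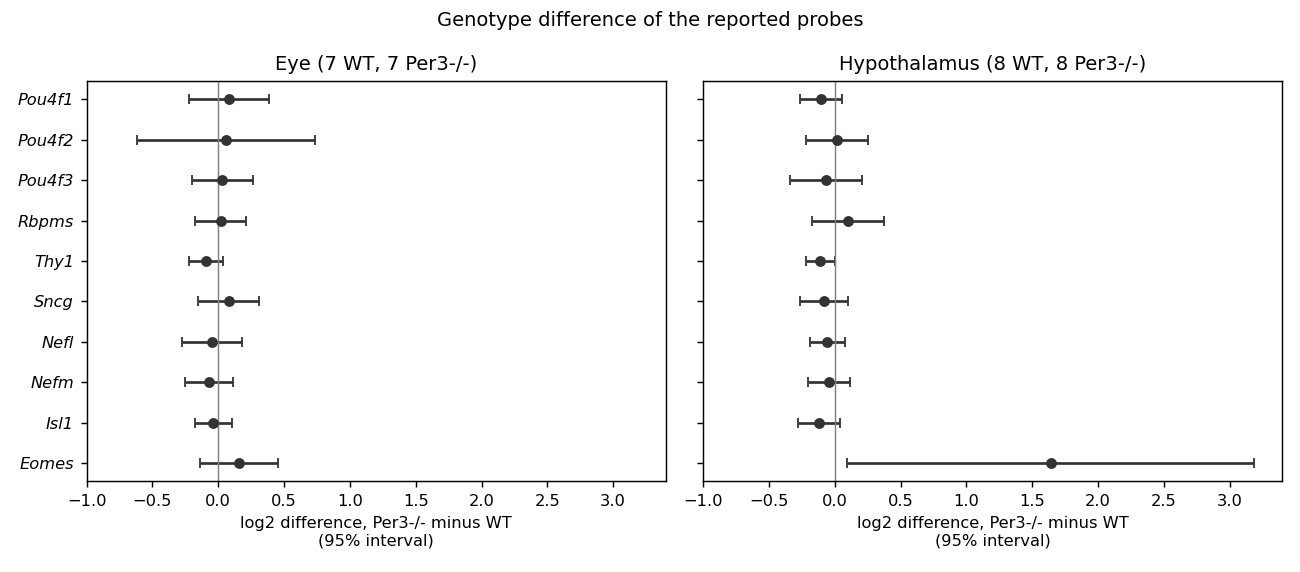
Log2 difference between Per3-/- and WT mice for the reported probe of each gene, with the 95% interval of limma, in the eye (7 against 7 arrays) and in the hypothalamus (8 against 8). All 10 intervals include 0 in the eye, and in the hypothalamus those of Eomes (0.09 to 3.19) and Thy1 (-0.22 to -0.00) do not, though neither passed the adjusted test.

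The further lists gave no calls between genotypes either. In each of the lists named above, 0 genes passed an adjusted p of 0.05 in the eye or in the hypothalamus. The 30 further ganglion cell genes had 1 at an unadjusted p under 0.05 in the eye, Igf1 (0.32), and 3 in the hypothalamus. The melanopsin list had 0 in both. Of all 41174 probes, 743 reached this level between the eyes of the genotypes and 1161 between their hypothalamic blocks. The median genotype difference in the eye was 0.00 over the further ganglion cell genes, -0.02 over the melanopsin list and -0.02 over the axonal list. In the hypothalamus these medians were -0.05, 0.02 and -0.10, against -0.01 over all probes, with 2 axonal genes and 3 of the amacrine list at an unadjusted p under 0.05. The myelin genes had a median of -0.49 in the eye, with an SD among eyes of 1.29 for Mbp.

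Whether the genes rose and fell together was asked across the 14 eyes after the genotype means were removed. Over the 45 pairs of the reported probes, 0 passed an adjusted p of 0.05 by Pearson's r or by Spearman's rho (permutation tests, two-sided, 100000 resamples). At an unadjusted p under 0.05 there were 4 pairs by r and 5 by rho. The median r was 0.09, and 29 of the 45 were above 0. Probes share the arrays and their normalization, and Pou4f2 was near background in 6 of the 14 eyes.

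The pair with the largest r in size was Pou4f2 and Nefl, with r = -0.74 (permutation p = 0.00263, adjusted 0.118) and rho = -0.69 (permutation p = 0.00734, adjusted 0.165). Leaving out the 2 eyes farthest from the median of Pou4f2 gave r = -0.66. Both genes followed the slide. The 4 eyes of slide 4 lay between -5.48 and -4.91 for Pou4f2, above the 10 others at -5.74 or less, and their mean of Nefl was 3.95 against 4.16 to 4.28 on the other slides. With the slide means removed r was -0.37, and after quantile normalization it was -0.48. Nefl and Eomes had r = 0.65 (permutation p = 0.0125, adjusted 0.282) and 0.35 within slides. That pair passed after quantile normalization, with r = 0.82 (adjusted 0.0311), and had r = -0.03 with normexp.

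Pou4f1 and Sncg had r = 0.50 (permutation p = 0.0688, adjusted 0.436) and rho = 0.71 (permutation p = 0.00626, adjusted 0.165), with r = 0.80 without the 2 eyes farthest from the median of Pou4f1 and 0.33 within slides. Pou4f1 and Pou4f2 had r = 0.09 (permutation p = 0.756, adjusted 0.945) and rho = 0.27 (permutation p = 0.348, adjusted 0.711). The neurofilament subunits Nefl and Nefm had r = 0.19 (permutation p = 0.519, adjusted 0.768) and rho = 0.22 (permutation p = 0.451, adjusted 0.753), and r = 0.62 within slides (permutation p = 0.0664, adjusted 0.890).

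Between slides lay 75.4% of the variance within genotypes for Eomes, 66.9% for Pou4f2, 55.5% for Nefl and 49.5% for Isl1, against a median of 32.9% over all probes, and 6.0% for Rbpms. With the slide means removed, 0 pairs had an unadjusted p under 0.05 by r, and 1 by rho.

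**Figure D5:**
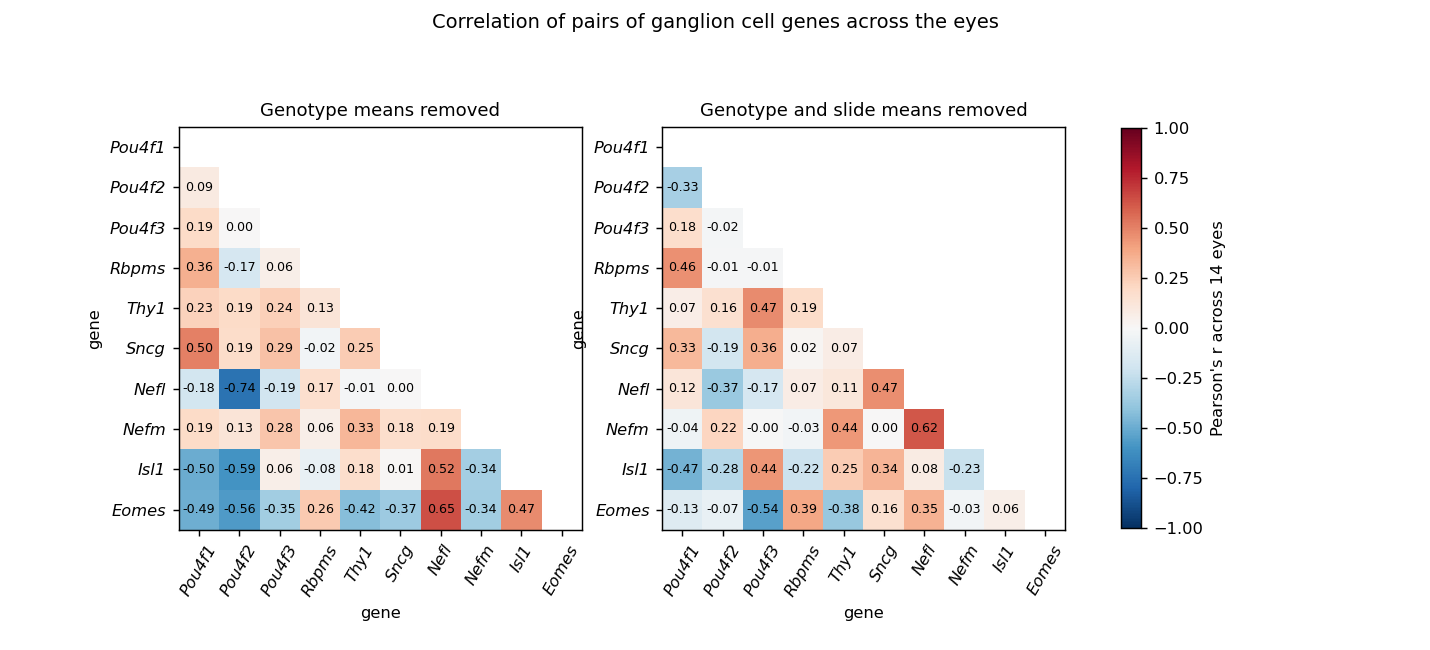
Pearson's r across the 14 eyes for each of the 45 pairs of the 10 genes, with the genotype means removed (left) and with the slide means removed as well (right), from -1 in blue to 1 in red. The pair of Pou4f2 and Nefl goes from -0.74 to -0.37, that of Nefl and Nefm from 0.19 to 0.62, and no pair passed the adjusted test in either panel.

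Across the 16 hypothalamic blocks 2 of the same 45 pairs passed by r and 3 by rho. Pairs with Pou4f2 or Pou4f3, none of which passed, use values that were not well above background on any block. Sncg and Eomes moved in opposite directions with r = -0.85 (permutation p = 0.00014, adjusted 0.0063) and rho = -0.72 (permutation p = 0.00251, adjusted 0.0437), and with r = -0.62 without the 2 arrays farthest from the median of Sncg. Per3-/- mouse 7 had the highest Eomes and the lowest Sncg, at -0.26. With the slide means removed, the pair of Sncg and Eomes passed by neither measure. Eomes was well above background on 10 of the 16 arrays. Nefl and Nefm moved together with r = 0.72 (permutation p = 0.00216, adjusted 0.0486) and rho = 0.71 (permutation p = 0.00291, adjusted 0.0437), and with r = 0.60 without the 2 farthest arrays. Within slides r was 0.90 (permutation p = 0.00058, adjusted 0.0261) and rho did not pass (adjusted 0.190), and neither r after quantile normalization (adjusted 0.146) nor with normexp (adjusted 0.106) passed. Thy1 and Nefm passed by rho alone, at 0.71 (permutation p = 0.00274, adjusted 0.0437), with r = 0.58 (permutation p = 0.0206, adjusted 0.132) and 0.74 without the 2 farthest. Without mice 1 and 7, 0 of the 45 pairs passed by either measure, with r = -0.70 for Sncg and Eomes and 0.47 for Nefl and Nefm.

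The 9 genes well above background in every eye, all but Pou4f2, were averaged as z-scores. The genes themselves followed that mean only in part, with r from 0.11 for Eomes to 0.57 for Nefl. Among 27869 other probes well above background in every eye, those most like that mean were Fkbp1b (r = 0.91 over 14 eyes), a partner of calcium release channels, Ccdc106 (0.86), Mapk8ip1 (0.86), a scaffold of the JNK kinase pathway, Cplx3 (0.85), a complexin of retinal ribbon synapses, Klc3 (0.85), a kinesin light chain, and Cxxc5 (0.84), a zinc finger protein. The others of the first 10, down to 0.84, were TC1645789, A_51_P281078, LOC100047597 and 9530077C05Rik. This is a description with no test, since the highest of many correlations is high by selection and the arrays share slides and normalization.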

How the data were processed

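Total RNA of the whole eye and of a hypothalamic block was labelled with Cy3 and hybridised to 1-colour Agilent arrays. The authors extracted intensities with Feature Extraction 10.7.1.1. Per the file headers, the processed intensity of a spot has its background subtracted and is not normalized between arrays. The log2 values that the authors deposited equal log2 of these signals less the 75th percentile and less the median of the probe within the tissue, to within 0.01 in 99.93% of cases, with column medians from -0.0725 to 0.0803.

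Here the log2 processed signal less the log2 75th percentile of its array was used for 41174 non-control probes. Spots marked as outliers were left out (at most 91 per array) and spots of a probe averaged. Gene names are those of the hypothalamus array files, and eye probes were matched by probe name. The members and lists were chosen with earlier results of these data known. Named genes were the 10 members, the 3 of highest eye signal in each list with any gene called between genotypes, and the 10 probes most like the members across eyes. Igf1, Opn4, Gna14, Tbx20, S100a5, Doc2g, Gh and Prl were named after their values were seen. Some genes of the lists are not reported here by name.

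Genotypes were compared within a tissue with limma 3.58.1 in R 4.3.3 (two-sided, Benjamini-Hochberg over all probes), and tissues with duplicateCorrelation by mouse (0.059). Eye and hypothalamus arrays with the same genotype and replicate number in their titles were taken to come from the same mouse. Correlations used Python 3.11.15, numpy 2.4.6 and scipy 1.17.1. Fits and correlations were tested on simulated data. The 75th percentile intensity was 1131 to 1644 in the eye and 1408 to 2207 in the hypothalamus, and precision is set by how many arrays there are. Each tissue filled 4 slides, and every slide held both genotypes. WT and Per3-/- eyes of the same replicate number, which shared slides, deviated together in all 6 pairs (r = 0.11 to 0.63), so the replicate block is given for the eye. The alternatives were quantile normalization, scaling to the median of probes well above background, normexp (offset 50), only probes well above background, slide as a block, replicate block, the methods' t-test, the authors' values and leaving out each array. Leaving out Per3-/- mice 1 and 7 of the hypothalamus together was chosen after seeing the data.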

Additional observations from a re-analysis of the deposited data

Results flagged for a closer look

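An array was listed when the gap between it and its nearest neighbour took up an unusually large share of the range of its group of 7 or 8 arrays. This was applied to 68 groups (17 probes in 4 groups), of which chance lists about 1 in 20, and it listed 12 arrays.

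In the hypothalamus, the array of Per3-/- mouse 1 was the highest of its group for 2 Rbpms probes, at -3.07 (A_51_P350332) and -2.73 (A_52_P144032), and the lowest for Pou4f1, at -2.64. The array of Per3-/- mouse 7 was the lowest for Isl1, at -1.54. Among WT arrays, that of mouse 8 was the highest for the Thy1 probe A_51_P420731, at 1.44, and that of mouse 2 the lowest for the Thy1 probe A_52_P479249, at 6.78.

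In the eye, the arrays of the WT and the Per3-/- mouse of replicate 3 were the lowest for Pou4f2, at -7.35 and -7.48 by A_51_P389624 and, for the Per3-/- mouse, at -7.12 by A_52_P257004, none of them well above background. The array of Per3-/- mouse 8 was the lowest for Rbpms (A_51_P350332), at -1.96, and that of mouse 5 the highest for Rbpms (A_52_P662203), at -3.15. The array of Per3-/- mouse 2 was the lowest for Nefm, at 0.78. The causes were not tested.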

How the results depend on the processing

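No reported probe was called between genotypes in either tissue, nor for the difference between tissues, under any alternative or with any array left out (lowest adjusted p 0.754 in the eye, 0.437 in the hypothalamus and 0.448 for the difference). The replicate block took the calls among all probes from 8 to 1 in the eye and from 17 to 5 in the hypothalamus. WT and Per3-/- hypothalamus arrays of the same number shared slides too (correlations -0.03 to 0.32, 2 of 8 best with their own number). The methods' t-test gave 835 and 1255 probes at an unadjusted p under 0.05 and 7 and 14 after Benjamini-Hochberg adjustment, no member among the latter. Normexp gave 4 calls in the eye and 10 in the hypothalamus and moved the median genotype difference of all probes in the eye to 0.18. Calls of the difference between tissues went from 2 to 1 after quantile normalization and 0 with normexp (limma, 1282 at an unadjusted p under 0.05). Between tissues 14 to 17 member probes were called, where the 14 were out of 15 tested with only probes well above background. Normexp lowered the differences of Pou4f3 to 1.75, of Pou4f2 to 0.76 and of Eomes to 1.03.

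Pairs of members passing by r across the eyes went from 0 to 1 after quantile normalization and with normexp. Across the hypothalamus they went from 2 to 1 with slide means removed or after quantile normalization, and to 0 without mice 1 and 7. By rho the 3 pairs there fell to 0 under these same 3 settings and to 1 with normexp.

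Uncalled genotype differences changed sign as follows, and the cause was not tested. Eye, replicate block: -0.0405 for Pou4f2, -0.0174 for Rbpms and 0.003 for Nefl. Leaving out single eyes gave -0.0163 to 0.148 for Pou4f1, -0.0693 to 0.256 for Pou4f2, -0.0278 to 0.0807 for Pou4f3 and -0.0133 to 0.0795 for Rbpms. In the hypothalamus normexp gave -0.22 for Pou4f2 and -0.0092 for Rbpms, and quantile normalization gave 0.0036 for Pou4f3. Without mice 1 and 7 they were -0.0 for Pou4f2, 0.0464 for Pou4f3, -0.0093 for Rbpms, 0.0144 for Sncg, 0.013 for Nefl and 0.0301 for Nefm. Leaving out single arrays gave -0.0279 to 0.0923 for Pou4f2 and -0.0254 to 0.134 for Rbpms. The difference between tissues became -0.0188 for Pou4f3, 0.0289 for Rbpms, -0.0105 for Thy1 and -0.0615 for Nefl without mice 1 and 7, and 0.0992, -0.0609 and -0.0677 for Rbpms, Thy1 and Nefl with normexp.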
